A study of Homo sapiens with 2 samples.

Results

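The 40 genes described here drive the S phase of the cell cycle and DNA replication: the replicative helicase and its licensing factors, polymerases and their clamp, enzymes of nucleotide synthesis, nucleases and repair enzymes, histone and chromatin factors, fork and checkpoint proteins, and cyclin E with an E2F factor. They were chosen by name as 40 of the 36601 genes in the deposited matrix, and all 40 were found there. Expression was measured in OVCAR5 cells, a line from a human ovarian carcinoma, which carried a reporter sensing interferon gamma (IFN-gamma). The tumours had grown in NSG-b2m-/- mice, which lack lymphocytes of their own. They were digested with Liberase and DNase I, and the cells were exposed to recombinant cytokines outside the animal for 6 h and then sorted for cyan fluorescent protein, which marked bystander cells of the tumour. The labels give 15 conditions in a pool of 5 tumours: 5 with 100 ng/ml IFN-gamma and 10 ng/ml tumour necrosis factor alpha (TNF), 5 with 10 ng/ml TNF, and 5 without cytokine. All 15 share the line, the reporter, the digestion, the sort and a single 10x Genomics 3' gene expression library, and the labels do not say which conditions came from the same tumour.

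Each cell was assigned to a pair of antibody hashtags, since cells carried 1 of HTO2, HTO3 and HTO4 together with 1 of HTO5 to HTO10. The labels do not join pairs to treatments. The 15 pairs were therefore placed in 3 inferred groups of 5 by the response genes of the same cells. The both-cytokine pairs were HTO2+HTO7, HTO3+HTO6, HTO3+HTO9, HTO4+HTO6 and HTO4+HTO9. The TNF pairs were HTO2+HTO6, HTO2+HTO10, HTO3+HTO5, HTO3+HTO8 and HTO4+HTO8. The no-cytokine pairs were HTO2+HTO5, HTO2+HTO8, HTO3+HTO7, HTO4+HTO7 and HTO4+HTO10. Values by pair are given in these orders throughout. A list of 15 IFN-gamma response genes summed to 185 to 283 UMIs per 10000 in the both-cytokine pairs, 6.24 to 12.9 in the TNF pairs and 4.35 to 6.38 in the no-cytokine pairs. A list of 15 NF-kB response genes summed to 82.8 to 101 in the both-cytokine pairs, 57.3 to 89.0 in the TNF pairs and 6.80 to 10.5 in the no-cytokine pairs. Because the groups were formed from expression in the same library, their values are described by pair, median and overlap, and no test was run between them.

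The library held 5269 barcodes, of which 3538 had at least 1000 genes and at most 20% mitochondrial UMIs. A clear pair was found in 3144 of these cells, with 49 to 630 cells and 582102 to 7324691 UMIs in each pair. Median UMIs per cell lay between 10942 and 12405 in all pairs, while median genes per cell were 3022 to 3191 in the both-cytokine pairs, 3116 to 3416.5 in the TNF pairs and 3226 to 3431 in the no-cytokine pairs. A list of 13 epithelial and tumour markers also moved with the groups, at 41.7 to 50.1 UMIs per 10000 in the both-cytokine pairs, 46.5 to 68.7 in the TNF pairs and 74.2 to 91.8 in the no-cytokine pairs. Of its 12 members at a mean level of at least 0.05, 5 were lower in every both-cytokine pair than in every no-cytokine pair. Over all genes at that level the share was 19.8%. For TNF against none 3 were lower, beside 4.09% of all genes, and for both cytokines against TNF 3 were lower, beside 9.34%. Markers of T and NK cells summed to at most 0.0161 in every pair, those of fibroblasts to at most 0.0669, those of endothelium to at most 0.0531 and those of myeloid cells to at most 0.403. The part of gene number and of epithelial markers in the results below was not tested.

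Before S phase, CDC6, with CDT1, loads the MCM2 to MCM7 helicase onto origins, and geminin (GMNN) blocks further loading once replication has begun. CDC45 and the GINS complex turn the loaded helicase into an active one, the polymerases copy DNA held by the PCNA clamp, and ribonucleotide reductase and thymidylate synthase supply the nucleotides. Many of these genes are switched on at the end of G1 by E2F transcription factors, which the retinoblastoma protein RB1 holds in check until cyclin-dependent kinases inactivate it.

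Promoter windows from RefSeq (GRCh38.p14, 250 bases before to 50 after a gene's start) were searched on both strands for 4 strings of 8 letters of the type bound by E2F factors, TTTGGCGC, TTTCCCGC, TTTGCCGC and TTTCGCGC. At least 1 was present in 20 of the 33 members with a window (60.6%), against 1090 of all 27305 gene symbols (3.99%). Matches on the 2 strands can overlap, and a window was counted once however many it held. Stretches upstream of the start and outside GENCODE release 29 exons are printed for 5 members that were lower in all both-cytokine pairs than in all no-cytokine pairs and for PCNA, whose groups overlapped. Capitals mark the motif as read on the gene's own strand, in either orientation.
MCM6 (chr2:135876482-135876635, minus strand): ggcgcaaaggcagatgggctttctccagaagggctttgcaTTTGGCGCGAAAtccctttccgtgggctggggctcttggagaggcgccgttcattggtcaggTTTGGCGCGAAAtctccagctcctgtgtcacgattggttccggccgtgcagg
MCM3 (chr6:52284882-52284956, minus strand): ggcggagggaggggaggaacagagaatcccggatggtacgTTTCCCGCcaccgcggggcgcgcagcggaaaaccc
GMNN (chr6:24775293-24775380, plus strand): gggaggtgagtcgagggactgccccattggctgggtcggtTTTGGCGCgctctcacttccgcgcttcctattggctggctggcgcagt
TIPIN (chr15:66356717-66356791, minus strand): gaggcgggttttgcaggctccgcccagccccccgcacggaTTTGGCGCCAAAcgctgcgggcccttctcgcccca
CDCA7 (chr2:173354767-173354819, plus strand): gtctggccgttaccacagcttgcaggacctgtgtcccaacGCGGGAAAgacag
PCNA (chr20:5126634-5126721, minus strand): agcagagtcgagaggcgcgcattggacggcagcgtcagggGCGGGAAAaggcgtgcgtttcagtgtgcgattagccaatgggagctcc
MCM6 holds TTTGGCGCGAAA at 2 places in this stretch, each of which reads as a motif on both strands, and TIPIN holds the palindrome TTTGGCGCCAAA. The stretches of GMNN and TIPIN lie inside a longer gene model of the same gene. The next counts of members cover only those with a window and a mean level of at least 0.05. A motif was found in 11 of the 13 that were lower in all both-cytokine pairs than in all no-cytokine pairs (84.6%). It was found in 6 of the 15 whose groups overlapped in that comparison (40%). Of other genes, 22 of 55 in replication (40%) and 3 of 31 in G2 and mitosis (9.68%) had it. A match describes letters in the window and is neither a shown binding site nor a cause.

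The summed level of the 40 genes was lowest in the both-cytokine pairs, at 6.59, 6.75, 4.79, 5.61 and 6.91 UMIs per 10000 UMIs of the pair. It was 7.55, 9.59, 6.96, 8.04 and 11.6 in the TNF pairs, and 10.9, 11, 8.55, 12.6 and 9.93 in the no-cytokine pairs. Every both-cytokine pair lay below every no-cytokine pair, with a log2 ratio of the group medians (6.59 and 10.9) of -0.72. The TNF pairs, with a median of 8.04, overlapped the no-cytokine pairs at a log2 ratio of -0.43. The both-cytokine pairs also lay below all TNF pairs (log2 ratio -0.29), but only by the margin between 6.91 in HTO4+HTO9 and 6.96 in HTO3+HTO5. These 2 values had exact 95% Poisson intervals of 6.32 to 7.53 and 6.30 to 7.67, and the groups overlapped when the cell filters were changed. The highest pair was 2.62 times the lowest. With cells limited to 10% mitochondrial UMIs, which left 661 cells and 9 to 110 in a pair, the both-cytokine and no-cytokine pairs overlapped at a log2 ratio of -0.64. In bulk sums of this kind, fewer replicating cells and less RNA per replicating cell cannot be told apart. Levels within cells are given further below. They do not separate these either, because the cells there are picked by their member UMIs. A shift was also present in all genes: over the 9361 genes with a mean level of at least 0.05, the median log2 ratio was -0.24 for both cytokines over none, -0.07 for TNF over none and -0.17 for both cytokines over TNF.

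**Figure D1:**
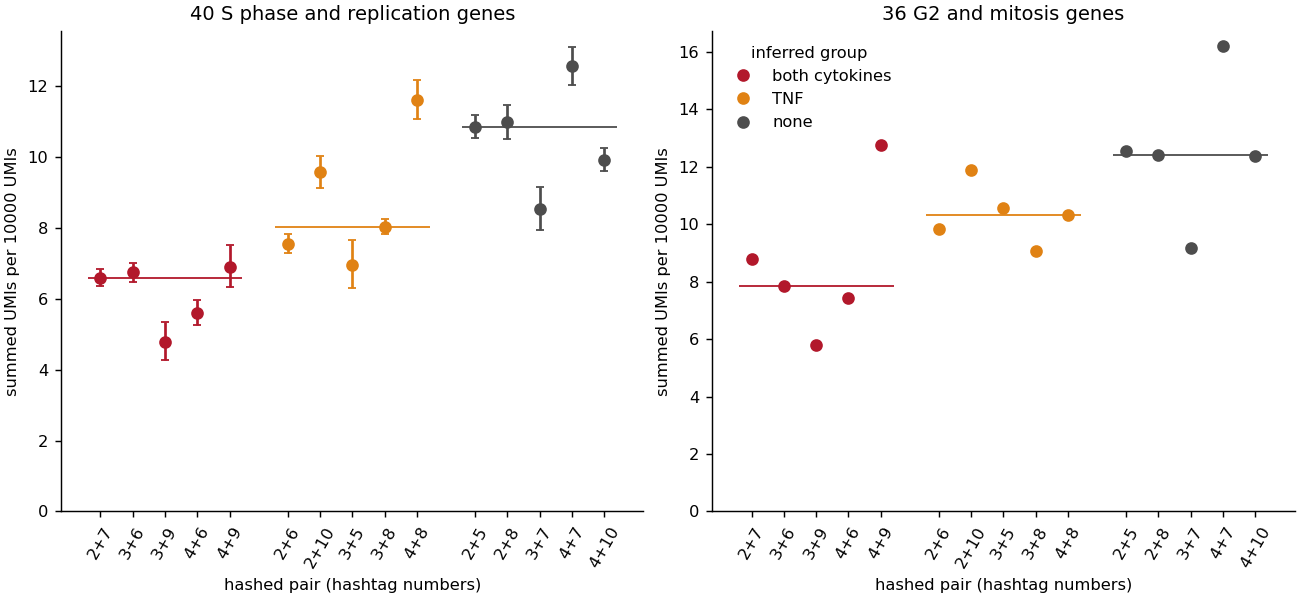
Summed UMIs of the 40 replication genes (left) and of 36 G2 and mitosis genes (right) per 10000 UMIs, for each hashed pair, coloured by inferred group; lines are group medians and bars on the left are exact 95% Poisson intervals, which cover counting error only. On the left the both-cytokine pairs (4.79 to 6.91) lie below all no-cytokine pairs (8.55 to 12.6). On the right the groups overlap, for the both-cytokine pairs through HTO4+HTO9 alone (12.7).

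Pairs that share a first hashtag were also compared among themselves, a split added after seeing the data. Every both-cytokine pair lay below every no-cytokine pair, so the sign for both cytokines over none was fixed in advance. Only the size of that ratio could differ between sets. The log2 ratio of both cytokines over none was -0.73 among HTO2 pairs, -0.57 among HTO3 pairs and -0.85 among HTO4 pairs. The only both-cytokine pair with HTO2 was HTO2+HTO7, and the only no-cytokine pair with HTO3 was HTO3+HTO7, of 71 cells. For TNF over none it was -0.35 among HTO2 pairs, -0.19 among HTO3 pairs and 0.05 among HTO4 pairs, so the HTO4 pairs, whose only TNF pair was HTO4+HTO8, did not share the direction of the others.

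Of the 40 members, 33 had a mean level of at least 0.05 over the 15 pairs. The remaining 7 were EXO1, CHAF1B, E2F8, PRIM1, POLA1, DSCC1 and DTL, all below that level. Of the 33, 14 were lower in every both-cytokine pair than in every no-cytokine pair and 0 were higher; over all genes at that level 19.8% were lower in this way and 8.57% higher. For TNF against none, 3 members were lower and 0 higher, where the shares over all genes were 4.09% and 4.04%. For both cytokines against TNF, 2 were lower and 0 higher, where the shares were 9.34% and 5.7%. The median log2 ratio of the 33 members was -1.10 for both cytokines over none, -0.36 for TNF over none and -0.56 for both cytokines over TNF. The group median was lowest in the both-cytokine pairs for 31 of the 33, and 27 of the 33 had medians in the order both cytokines, TNF, none. The share of all genes with such an order of medians was not computed, and all genes were shifted in the same direction. The 31 and 27 are therefore not read as a result about the members. The 7 sparse members were not used in any of the counts above. EXO1, an exonuclease, CHAF1B, a subunit of the chromatin assembly factor, E2F8, a repressor of the E2F family, PRIM1 and POLA1, of the primase and polymerase alpha complex, and DSCC1, of an alternative clamp loader, overlapped in all 3 comparisons at levels of 0 to 0.0919. Among the 7, DTL, a receptor of the ligase that removes CDT1, was lower in all both-cytokine pairs (0 to 0.0376) than in all no-cytokine pairs (0.0551 to 0.0751).

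The counts depend on which pairs are included. Without the 4 pairs of fewest cells, 27 of the 33 members were lower for both cytokines against none, beside 36.8% of all genes. In the same setting 6 were lower for TNF against none, beside 9.41%, and 16 for both cytokines against TNF, beside 24.6%. For both cytokines against none, 23 were lower without HTO3+HTO7, beside 25.7%. Without HTO4+HTO8, 7 members were lower for TNF against none, beside 5.36%, and 5 without HTO3+HTO7, beside 7.12%. For both cytokines against TNF the count was 8 without HTO3+HTO5, beside 13.8%, 5 without HTO3+HTO6, beside 10.7%, and 4 without HTO2+HTO6, beside 9.98%. In the 661 cells with at most 10% mitochondrial UMIs the count for both cytokines against none was 2, beside 6.24%, and among the 15 members that averaged 0.2 or more it was 6, beside 21.7% of all genes. At that level 0 members were higher for both cytokines against none (10.9% of all genes), 0 lower and 0 higher for TNF against none (4.1% and 5.54%), and 0 lower and 0 higher for both cytokines against TNF (11.4% and 7.15%).

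**Figure D2:**
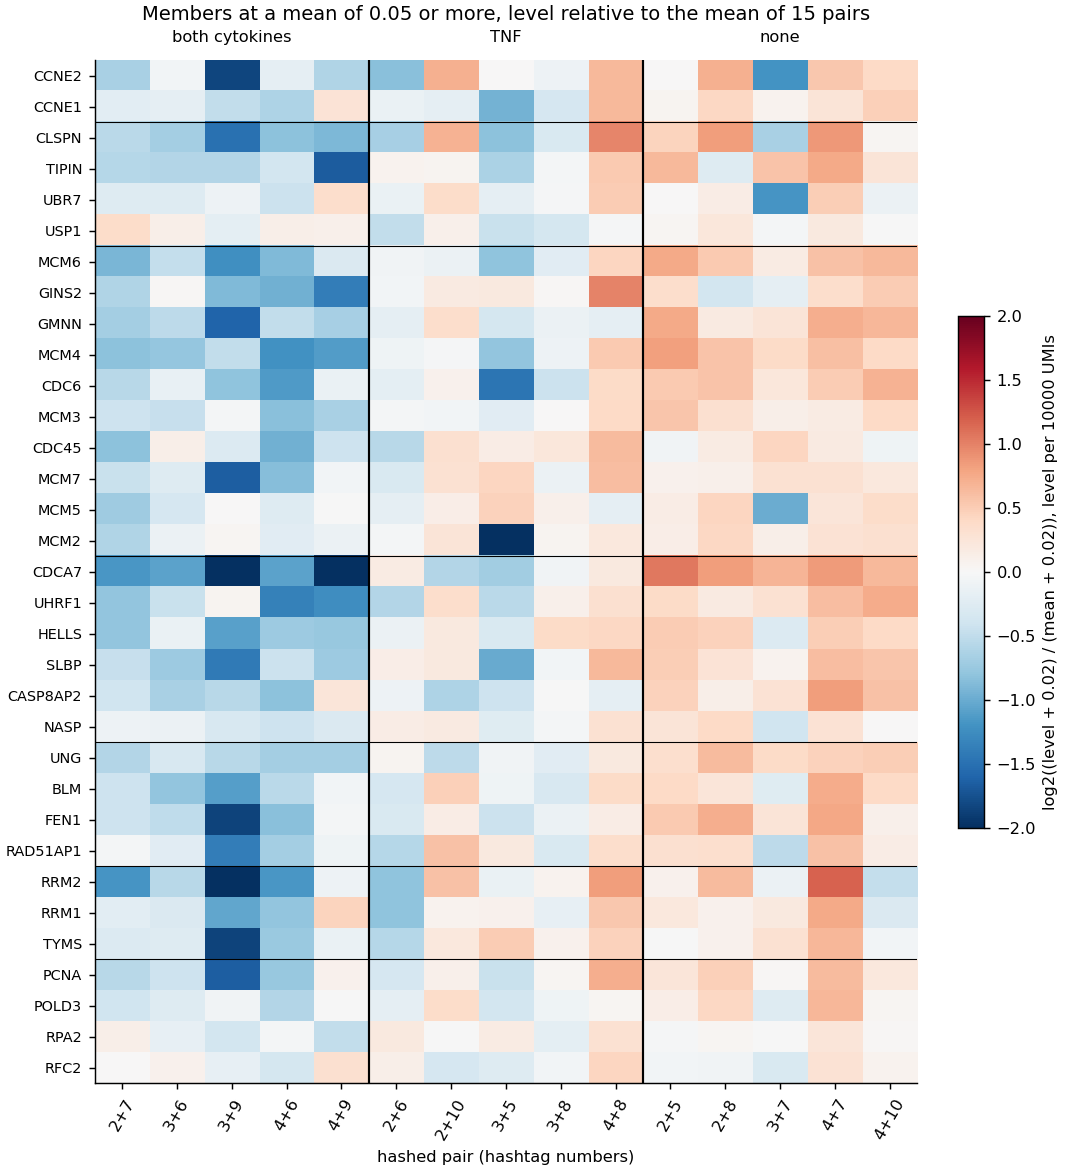
Level of each of the 33 members with a mean of at least 0.05 (rows, grouped by role) in each of 15 hashed pairs (columns, by inferred group), as log2 of the level plus 0.02 over the mean plus 0.02. The both-cytokine columns are mostly below the mean and the no-cytokine columns mostly above it, and the rows of USP1, RFC2 and RPA2 show little colour.

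The helicase and its licensing factors held 7 of the 14 members without overlap. These 7 of 10 were lower in all both-cytokine pairs than in all no-cytokine pairs, beside 19.8% of all genes. For TNF against none 0 of 10 were lower, beside 4.09%. Each role holds few genes, so the counts by role here and below are not read as differences between roles. The summed level of the 10 had a log2 ratio of group medians of -1.20 for both cytokines over none and -0.58 for TNF over none. MCM4 (ENSG00000104738, chr8:47960185-47978160, plus strand), a helicase subunit, had levels of 0.218, 0.225, 0.277, 0.161 and 0.174 in the both-cytokine pairs, 0.375, 0.393, 0.223, 0.37 and 0.584 in the TNF pairs and 0.72, 0.601, 0.529, 0.617 and 0.534 in the no-cytokine pairs. Its both-cytokine pairs all lay well below its no-cytokine pairs (log2 ratio -1.46), and the TNF pairs overlapped each of the other groups. MCM6 (ENSG00000076003, chr2:135839626-135876426, minus strand), another subunit of the same ring, stood at 0.0625, 0.0912, 0.0462, 0.0644 and 0.107 in the both-cytokine pairs, 0.128, 0.124, 0.0687, 0.113 and 0.19 in the TNF pairs and 0.243, 0.204, 0.154, 0.214 and 0.224 in the no-cytokine pairs. Its highest both-cytokine pair was below its lowest no-cytokine pair, and the log2 ratio of -1.73 was the second lowest among the 33 members. MCM3 (ENSG00000112118, chr6:52264009-52284881, minus strand) gave 0.208, 0.201, 0.277, 0.15 and 0.174 in the both-cytokine pairs, 0.278, 0.275, 0.241, 0.285 and 0.381 in the TNF pairs and 0.426, 0.359, 0.309, 0.32 and 0.383 in the no-cytokine pairs, a smaller difference (-0.84) without overlap. MCM2 and MCM7 were also lower without overlap, at log2 ratios of -0.53 and -0.71, although MCM2 by a narrow margin (at most 0.0617 in the both-cytokine pairs and at least 0.0661 in the no-cytokine pairs). MCM5 overlapped, because HTO3+HTO7 stood at 0.0441 while the other no-cytokine pairs reached 0.121 to 0.150.

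The helicase loader and the inhibitor of loading were both lower without overlap. For CDC6 (ENSG00000094804, chr17:40287633-40304657, plus strand), the levels were 0.113, 0.158, 0.0925, 0.0697 and 0.16 in the both-cytokine pairs, 0.153, 0.188, 0.0515, 0.126 and 0.236 in the TNF pairs and 0.263, 0.273, 0.209, 0.261 and 0.298 in the no-cytokine pairs. All both-cytokine pairs were below all no-cytokine pairs (log2 ratio -1.22), and the TNF pairs spread across both. Geminin, GMNN (ENSG00000112312, chr6:24774931-24786099, plus strand), was measured at 0.106, 0.121, 0.0462, 0.123 and 0.107 in the both-cytokine pairs, 0.158, 0.237, 0.137, 0.167 and 0.158 in the TNF pairs and 0.323, 0.209, 0.22, 0.314 and 0.298 in the no-cytokine pairs. It was 1 of 2 members whose both-cytokine pairs lay below all TNF pairs, and its log2 ratios were -1.48 for both cytokines over none and -0.56 for both cytokines over TNF. CDC45 and GINS2, which activate the loaded helicase, overlapped between groups, at log2 ratios of -0.80 and -1.56 for both cytokines over none.

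**Figure D3:**
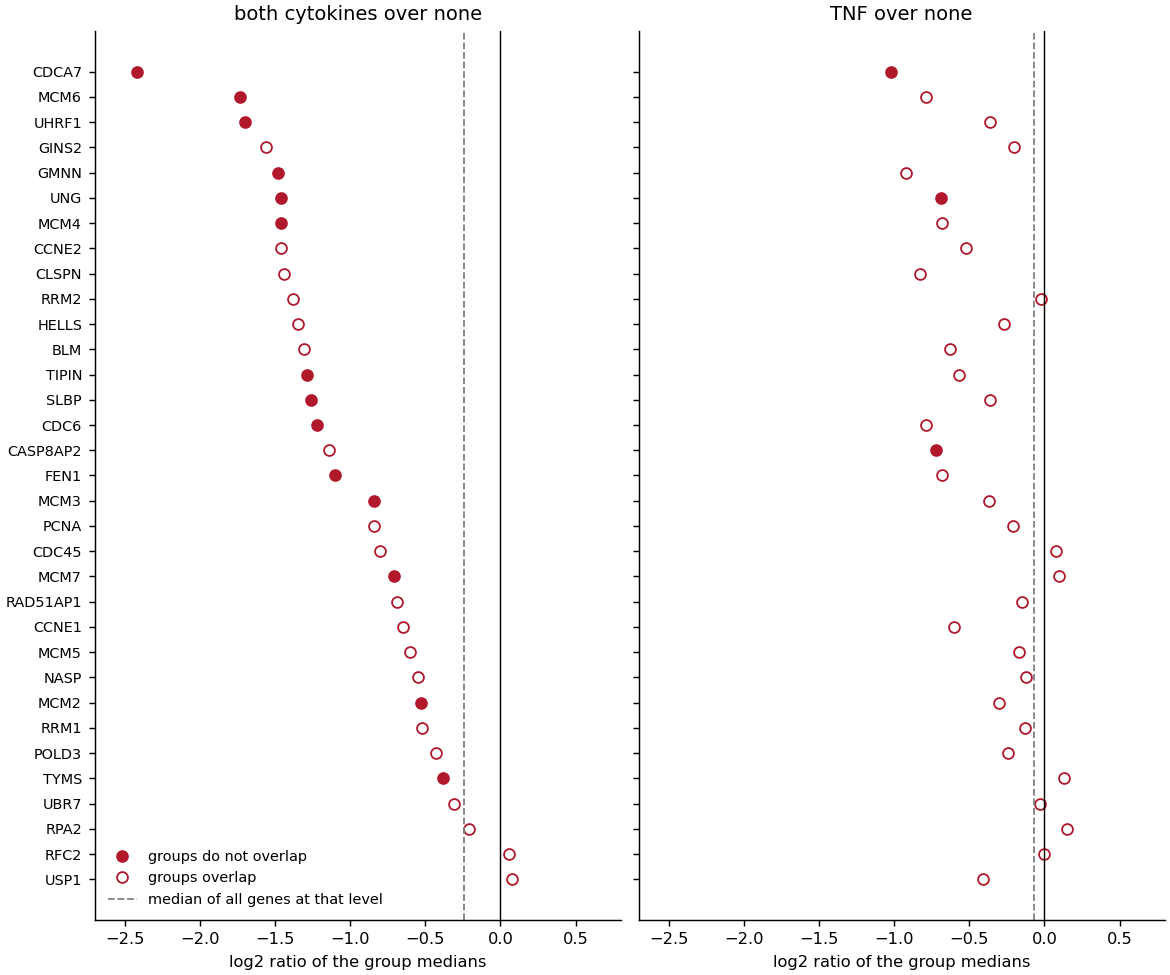
Log2 ratio of group medians for the 33 members with a mean of at least 0.05, for both cytokines over none (left) and TNF over none (right); filled points are members whose 5 pairs in each group do not overlap and the dashed line is the median over all genes at that level. On the left CDCA7 lies lowest at -2.42 and 31 of 33 members are below 0, and on the right 3 members are filled.

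The polymerase, clamp and single-strand binding members held 0 of 4 without overlap in any comparison. The shares of all genes lower were 19.8% for both cytokines against none, 4.09% for TNF against none and 9.34% for both cytokines against TNF. PCNA (ENSG00000132646, chr20:5114953-5126626, minus strand), the sliding clamp, had 0.317, 0.352, 0.139, 0.274 and 0.508 in the both-cytokine pairs, 0.373, 0.512, 0.344, 0.49 and 0.801 in the TNF pairs and 0.568, 0.67, 0.485, 0.747 and 0.555 in the no-cytokine pairs. Its group medians differed by a log2 ratio of -0.84, but HTO4+HTO9 among the both-cytokine pairs exceeded HTO3+HTO7 among the no-cytokine pairs. RPA2, a subunit of the single-strand binding protein, was close to level at 0.396, 0.322, 0.277, 0.354 and 0.254 in the both-cytokine pairs, 0.42, 0.361, 0.412, 0.315 and 0.453 in the TNF pairs and 0.356, 0.375, 0.364, 0.433 and 0.372 in the no-cytokine pairs. RFC2, of the clamp loader, had medians of 0.211 in the both-cytokine pairs, 0.202 in the TNF pairs and 0.201 in the no-cytokine pairs. The log2 ratio of both cytokines over none was -0.21 for RPA2 and 0.06 for RFC2. POLD3, a subunit of polymerase delta, had a log2 ratio of -0.43 with overlap.

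In nucleotide synthesis, 1 of 3 members was lower without overlap for both cytokines against none, beside 19.8% of all genes. This was TYMS (ENSG00000176890, chr18:657604-673578, plus strand), thymidylate synthase, at 0.363, 0.365, 0.108, 0.257 and 0.401 in the both-cytokine pairs, 0.293, 0.517, 0.636, 0.471 and 0.617 in the TNF pairs and 0.439, 0.472, 0.551, 0.712 and 0.425 in the no-cytokine pairs. The separation was narrow, 0.401 in HTO4+HTO9 against 0.425 in HTO4+HTO10, and the log2 ratio was -0.38. RRM2, the small subunit of ribonucleotide reductase, varied 23.1-fold over the 15 pairs, with only 2 UMIs in its lowest pair HTO3+HTO9, and 5.80-fold without that pair. Its levels were 0.123, 0.199, 0.0308, 0.123 and 0.281 in the both-cytokine pairs, 0.165, 0.463, 0.275, 0.317 and 0.552 in the TNF pairs and 0.32, 0.477, 0.275, 0.712 and 0.212 in the no-cytokine pairs. The no-cytokine pair HTO4+HTO10 fell among the both-cytokine pairs, so the groups overlapped in spite of a log2 ratio of -1.38. The large subunit RRM1 also overlapped (-0.52).

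Among nucleases and repair enzymes, 2 of 4 were lower without overlap for both cytokines against none, beside 19.8% of all genes. FEN1 (ENSG00000168496, chr11:61792637-61797244, plus strand), which cuts the flaps of Okazaki fragments, had 0.243, 0.225, 0.0771, 0.177 and 0.321 in the both-cytokine pairs, 0.263, 0.366, 0.241, 0.302 and 0.368 in the TNF pairs and 0.483, 0.558, 0.397, 0.581 and 0.354 in the no-cytokine pairs. Its both-cytokine pairs were below its no-cytokine pairs (log2 ratio -1.10) and mixed with its TNF pairs. UNG (ENSG00000076248, chr12:109097574-109110992, plus strand), which removes uracil from DNA, was sparse, at 0.0301, 0.0403, 0.0308, 0.0268 and 0.0267 in the both-cytokine pairs, 0.0575, 0.0323, 0.0515, 0.0437 and 0.0657 in the TNF pairs and 0.0749, 0.0965, 0.0771, 0.083 and 0.0855 in the no-cytokine pairs. Both cytokine groups lay below the no-cytokine pairs, at log2 ratios of -1.46 for both cytokines and -0.69 for TNF. BLM, a helicase of recombination, and RAD51AP1, a factor of homologous recombination, overlapped at -1.31 and -0.69.

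Among histone and chromatin factors, 3 of 6 were lower without overlap for both cytokines against none, beside 19.8% of all genes. For TNF against none 2 of 6 were lower, beside 4.09%, and for both cytokines against TNF 1 of 6, beside 9.34%. CDCA7 (ENSG00000144354, chr2:173354820-173368997, plus strand), a partner of the remodeller HELLS, had levels of 0.044, 0.0483, 0, 0.0483 and 0 in the both-cytokine pairs, 0.14, 0.0754, 0.0687, 0.116 and 0.144 in the TNF pairs and 0.276, 0.236, 0.209, 0.237 and 0.204 in the no-cytokine pairs. It had 0 UMIs in HTO3+HTO9 and HTO4+HTO9, which allows levels of up to 0.0462 and 0.0401 at 3 counts, or 0.0569 and 0.0493 by the exact Poisson interval. The 3 groups did not overlap in any comparison, with log2 ratios of -2.42 for both cytokines over none, -1.02 for TNF over none and -1.40 for both cytokines over TNF. Leaving out 1 pair at a time gave -3.42 to -2.34 for both cytokines over none and -2.40 to -1.12 for both cytokines over TNF, with the lowest values without HTO2+HTO7, HTO3+HTO6 or HTO4+HTO6. UHRF1 (ENSG00000276043, chr19:4903080-4962154, plus strand), which brings the maintenance DNA methyltransferase DNMT1 to newly copied DNA, was at 0.0255, 0.0376, 0.0617, 0.0107 and 0.0134 in the both-cytokine pairs, 0.0325, 0.0808, 0.0344, 0.0642 and 0.0788 in the TNF pairs and 0.0826, 0.0697, 0.0771, 0.101 and 0.112 in the no-cytokine pairs. All both-cytokine pairs were below the no-cytokine pairs, at a log2 ratio of -1.70, on few UMIs. SLBP (ENSG00000163950, chr4:1692800-1712555, minus strand), which binds the stem-loop of histone mRNAs, had 0.435, 0.357, 0.216, 0.445 and 0.361 in the both-cytokine pairs, 0.67, 0.7, 0.292, 0.584 and 0.959 in the TNF pairs and 0.862, 0.74, 0.639, 0.943 and 0.9 in the no-cytokine pairs. Its log2 ratio was -1.26 without overlap between both cytokines and none, and its TNF pairs reached from 0.292 to 0.959. CASP8AP2 (ENSG00000118412, chr6:89829894-89874436, plus strand), a factor of histone mRNA processing, was lower in all TNF pairs than in all no-cytokine pairs, with 0.123, 0.0993, 0.108, 0.0858 and 0.2 in the both-cytokine pairs, 0.155, 0.102, 0.12, 0.167 and 0.144 in the TNF pairs and 0.238, 0.182, 0.209, 0.314 and 0.26 in the no-cytokine pairs. Its both-cytokine pairs overlapped the no-cytokine pairs through HTO4+HTO9. NASP, a histone chaperone, had the highest mean level of the members (1.41) and overlapped, with 1.3, 1.3, 1.13, 1.05 and 1.15 in the both-cytokine pairs, 1.55, 1.59, 1.19, 1.37 and 1.74 in the TNF pairs and 1.69, 1.85, 1.06, 1.71 and 1.41 in the no-cytokine pairs. HELLS overlapped at -1.35, since HTO3+HTO7 was at 0.176 among no-cytokine pairs at 0.292 to 0.318.

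Of the fork, checkpoint and ubiquitin factors, 1 of 4 was lower without overlap for both cytokines against none, beside 19.8% of all genes. TIPIN (ENSG00000075131, chr15:66336206-66386746, minus strand), which protects forks together with TIMELESS, was at 0.109, 0.107, 0.108, 0.129 and 0.0401 in the both-cytokine pairs, 0.18, 0.178, 0.103, 0.167 and 0.256 in the TNF pairs and 0.279, 0.139, 0.264, 0.303 and 0.209 in the no-cytokine pairs, with a log2 ratio of -1.29 and a narrow margin between 0.129 and 0.139. CLSPN, the claspin that carries the ATR signal to CHK1, overlapped at -1.44, and UBR7 at -0.31. USP1, the deubiquitinase of PCNA and FANCD2, had the second highest mean level (0.659) and a median in the both-cytokine pairs that was not lower. Its levels were 0.854, 0.716, 0.57, 0.719 and 0.708 in the both-cytokine pairs, 0.46, 0.711, 0.481, 0.511 and 0.65 in the TNF pairs and 0.679, 0.772, 0.639, 0.753 and 0.655 in the no-cytokine pairs, so the medians of the both-cytokine and no-cytokine pairs were nearly level (log2 ratio 0.08) and the TNF pairs were lowest (log2 ratio -0.41, with overlap). The cyclins CCNE1 and CCNE2, partners of CDK2 at the entry into S phase, overlapped at -0.65 and -1.46 on levels below 0.1.

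Member UMIs were concentrated in few cells. For this, 3269 kept cells with at least 5000 UMIs were thinned at random to 5000 UMIs each, leaving out 269 shallower ones, and cells with at least 10 member UMIs were counted. There were 285 such cells (8.72%), which held 40.7% of all member UMIs, with a median of 11 members seen per cell against 2 in the remaining cells. This is a range of a continuous sum and not a cell type: 161 cells lay near the limit, at 8 to 11 UMIs. Cells above it were deeper before thinning, with a median of 16235 UMIs against 11756.

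Fewer both-cytokine cells reached that limit. They were 41 of 855 cells (4.80%, exact binomial interval 3.46% to 6.45%), against 112 of 1181 TNF cells (9.48%, 7.87% to 11.3%) and 109 of 892 no-cytokine cells (12.2%, 10.1% to 14.6%). These intervals cover counting error only. By pair, the shares were 5.06%, 5.90%, 0%, 3.50% and 5.08% in the both-cytokine pairs, 8.62%, 12.1%, 2.22%, 9.0% and 13.7% in the TNF pairs, and 13.0%, 11.7%, 6.06%, 15.1% and 11.9% in the no-cytokine pairs. The 0 of 49 cells in HTO3+HTO9 allow a share of up to 6.12% at 3 counts, or 7.25% by the exact binomial interval. All both-cytokine pairs were below all no-cytokine pairs, by the narrow margin of 5.90% in HTO3+HTO6 against 6.06% in HTO3+HTO7, and the TNF pairs overlapped both. These groups overlapped when cells were thinned to 3000 UMIs, when the mitochondrial limit was 10% or 30% and when the pair rule was stricter. Without thinning, the shares were 11.3% to 17.9% in the both-cytokine pairs, 12.2% to 27.2% in the TNF pairs and 26.8% to 35.9% in the no-cytokine pairs.

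**Figure D4:**
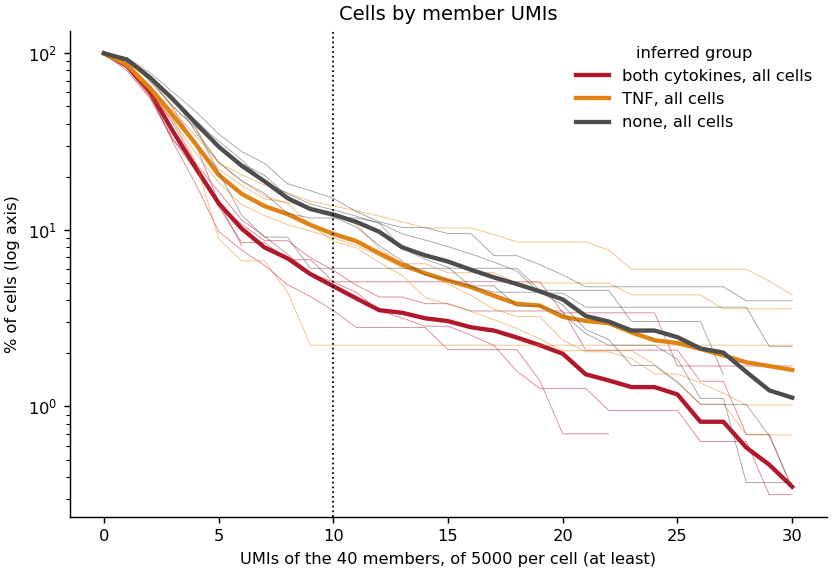
Share of cells (log axis, %) with at least the given number of member UMIs among 5000 UMIs per cell; thick lines pool the cells of an inferred group, thin lines are its 5 pairs, and the dotted line marks 10 UMIs. At 10 UMIs the pooled shares are 4.80% for both cytokines, 9.48% for TNF and 12.2% for none.

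Each member was then set against the other 39 in single cells. In cells with at least 10 UMIs of the other 39, the level was more than 2 times that in the remaining cells for 39 of 40 members and more than 5 times for 29. CCNE2 was 61.7 times higher, on 9 UMIs in the remaining cells, RRM2 44.5 times, RAD51AP1 43.1, CLSPN 35.2 and CDC45 35.0 times. EXO1 had 0 UMIs in the remaining cells and was at least 48.9-fold higher, with a floor of 3 counts over that group, so its place among these is not known. PCNA was 11.9 times, MCM4 7.58 times and NASP 3.14 times higher. RPA2 was lowest, at 1.63 times. The abundant members NASP, SLBP, USP1 and RPA2 also had levels of 1.18, 0.524, 0.497 and 0.347 in the cells with fewer UMIs of the other 39.

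**Figure D5:**
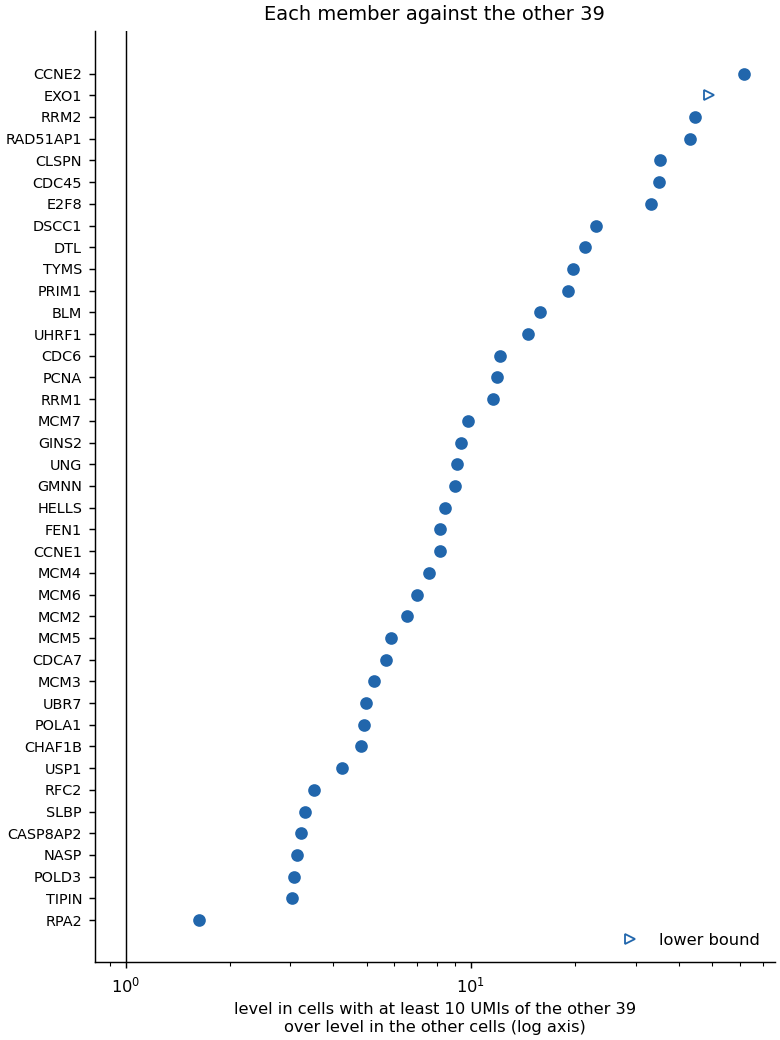
Level of each of the 40 members in cells with at least 10 UMIs of the other 39 over its level in the remaining cells (log axis); the open triangle is a lower bound. The ratio is above 2 for 39 members, with CCNE2 at 61.7 and RPA2 lowest at 1.63.

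Within the member-rich cells, members differed in their share of UMIs in both directions. Levels here are over all UMIs of the pooled cells of a group. Since the cells were picked on the summed members, a lower level of some goes with a higher level of others. Of 33 members, 21 had a lower level in both-cytokine than in no-cytokine cells and 12 a higher one. CDCA7 was at 0.204 in the 41 both-cytokine cells, 0.434 in the 112 TNF cells and 0.572 in the 109 no-cytokine cells. MCM6 was at 0.268 in both-cytokine cells, 0.586 in TNF cells and 0.681 in no-cytokine cells, and MCM4 at 1.28 in both-cytokine cells, 1.68 in TNF cells and 2.04 in no-cytokine cells. At the other end, TYMS was at 3.39 in both-cytokine cells, 2.87 in TNF cells and 2.33 in no-cytokine cells. RRM1 was at 1.49 in both-cytokine cells, 0.974 in TNF cells and 0.959 in no-cytokine cells, and MCM7 at 1.38 in both-cytokine cells, 1.13 in TNF cells and 0.975 in no-cytokine cells. These 6 members were chosen after their values were seen, and cells of 1 library are not replicates, so no difference between groups was tested.

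In the cells under the limit, the summed member level was 4 to 5.39 in the both-cytokine pairs, 4.36 to 5.53 in the TNF pairs and 5.34 to 6.24 in the no-cytokine pairs, with overlap. For both cytokines against none, 7 of 33 members (PCNA, MCM6, MCM7, CDCA7, GMNN, SLBP and TIPIN) were lower in all pairs in these cells and 1, USP1, was higher. USP1 had a median of 0.611 in the both-cytokine pairs, 0.339 in the TNF pairs and 0.450 in the no-cytokine pairs. It was lower in all TNF pairs than in all pairs of either other group. The margin to the no-cytokine pairs was narrow, at most 0.404 in the TNF pairs and at least 0.409 in the no-cytokine pairs. NASP was level, at medians of 1.11 in the both-cytokine pairs, 1.17 in the TNF pairs and 1.12 in the no-cytokine pairs. Which cells fall under the limit depends on the random thinning, and no share over all genes was computed for these cells. With all kept cells of the pairs, 19.8% of all genes were lower in this way and 8.57% higher. The 7 of 33 is therefore not read as a result about the members.

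Genes of G2 and mitosis marked an overlapping set of cells. Of the member-rich cells, 31 of 41 in the both-cytokine group (75.6%), 60 of 112 in the TNF group (53.6%) and 47 of 109 in the no-cytokine group (43.1%) also had at least 10 UMIs of 36 G2 and mitosis genes. Counted from the cells with at least 10 UMIs of those genes, the share that was also member-rich was 60.8% of 51 in the both-cytokine group, 75.9% of 79 in the TNF group and 69.1% of 68 in the no-cytokine group. Cells with at least 10 UMIs of those genes made up 5.96% of both-cytokine cells, 6.69% of TNF cells and 7.62% of no-cytokine cells. All these shares pool cells over the pairs of a group. Of the 41 member-rich both-cytokine cells, 16 were from HTO2+HTO7 and 17 from HTO3+HTO6. Of the 112 TNF cells, 53 were from HTO3+HTO8. Cells are not replicates, and no difference between groups was tested. The summed level of the 36 genes overlapped between groups, at 5.80 to 12.7 in the both-cytokine pairs, 9.08 to 11.9 in the TNF pairs and 9.18 to 16.2 in the no-cytokine pairs. For the both-cytokine pairs the overlap came from HTO4+HTO9 alone, of 64 cells, at 12.7. The other both-cytokine pairs were at 5.80 to 8.78. The log2 ratio of the group medians was -0.66 for both cytokines over none, close to the -0.72 of the 40 members. Only 1 of 34 genes at the minimum level, CDK1, was lower in all both-cytokine pairs than in all no-cytokine pairs. This was 2.94%, beside 19.8% of all genes. The median log2 ratio of the 34 was -0.80 for both cytokines over none. All 8 replication-dependent histone genes at that level overlapped in each of the 3 comparisons. Over all genes the shares lower were 19.8% for both cytokines against none, 4.09% for TNF against none and 9.34% for both cytokines against TNF.

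Of 63 other genes of DNA replication that are not among the 40, 39 reached the minimum level, and 17 of these were lower in all both-cytokine pairs than in all no-cytokine pairs, with 0 higher, beside the 19.8% and 8.57% of all genes. For TNF against none 1 was lower (RPA1), beside 4.09% of all genes, and for both cytokines against TNF 6 were lower, beside 9.34%. Among these 17, the log2 ratio of both cytokines over none was -1.38 for BRCA1, of recombination, -1.37 for CDT1, the partner of CDC6 in loading, -1.33 for MSH6, of mismatch repair, and -1.28 for ORC6, of the origin recognition complex. The 63 genes together had a level of 9.97 to 12.4 in the both-cytokine pairs, 13.5 to 16.2 in the TNF pairs and 15.4 to 17.8 in the no-cytokine pairs.

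Among 22 regulators of the passage from G1 to S, 16 reached the minimum level. In the both-cytokine pairs against the no-cytokine pairs, CDKN1A and RB1 were higher without overlap and E2F5, CCND1 and CDK4 were lower. These counts, 3 of 16 lower (18.75%) and 2 of 16 higher, were near the shares over all genes, 19.8% and 8.57%. The counts are therefore not read as a shift of the list. The summed level of the 22 was 10.4 to 11.5 in the both-cytokine pairs and 11.9 to 14.3 in the no-cytokine pairs (log2 ratio -0.39). The TNF pairs, at 11.2 to 12.7, overlapped each of the other groups. CDKN1A, which encodes the kinase inhibitor p21, was at 1.35, 1.23, 1.88, 1.77 and 1.67 in the both-cytokine pairs, 0.67, 0.84, 0.893, 0.582 and 0.854 in the TNF pairs and 0.207, 0.327, 0.154, 0.356 and 0.15 in the no-cytokine pairs. The 3 groups did not overlap in any comparison, with log2 ratios of 3.02 for both cytokines over none, 2.02 for TNF over none and 0.99 for both cytokines over TNF. CDKN1B, another kinase inhibitor of the list, was not higher: it was at 0.0805 to 0.154 in the both-cytokine pairs and 0.132 to 0.176 in the no-cytokine pairs. RB1 had medians of 0.778 in the both-cytokine pairs, 0.452 in the TNF pairs and 0.429 in the no-cytokine pairs. CCND1, the cyclin D1 partner of CDK4, had 5.28, 5.62, 5.33, 5.98 and 4.94 in the both-cytokine pairs, 6.32, 6.53, 4.71, 6.14 and 6.26 in the TNF pairs and 6.91, 7.8, 8.26, 8.49 and 7.04 in the no-cytokine pairs. In the member-rich cells, against the remaining cells, these 22 regulators together were 1.25 times higher, against 3.0 times for the other replication genes, 5.72 times for the G2 and mitosis genes and 7.67 times for the histones.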

How the data were processed

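The 2 libraries of 1 pool, gene expression and hashtags, were deposited as a single matrix of raw UMI counts, with a row for each gene and hashtag and a column for each barcode. Per the file headers it was written by Cell Ranger 5.0.1, whereas Cell Ranger 2.1.1 and GRCh38 stand in the submitters' processing notes, and the difference was not resolved. The rule that made barcodes cells is not given in these sources. Cells had at least 1000 genes and at most 20% mitochondrial UMIs. A cell went to its top pair of hashtags when the second had at least 10 counts and 3 times the third, which left 394 cells without a pair. Counts were summed per pair and given as UMIs per 10000, with exact Poisson or binomial intervals at 95%. A gene was said not to overlap when all 5 pairs of a group lay on 1 side of all 5 of the other, among genes with a mean level of at least 0.05. The rule was tried on simulated counts, where it recovered a large drop of known direction. Those counts held counting error and no other variation between pairs, so they do not show how often the rule errs in these data.

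The 40 members, the inferred groups and the other gene lists were chosen with earlier results of these data known. Each member is accounted for. Given pair by pair are the 8 members of highest mean level and up to 12 without overlap in a comparison, ranked by ratio, and RRM2, added after its values were seen. The pairs are not known to be separate cultures or animals, and cells are not replicates. No doublet caller was run, and doublets within a pair were not detected. UMIs collapse PCR copies, and 3' counts do not scale with transcript length, so levels were compared between genes per UMI. No cells that should lack these genes were present, so free RNA could not be measured. Coordinates are from GENCODE release 29 (GRCh38), and promoter sequences from RefSeq (GRCh38.p14). Analyses used python 3.11.15, numpy 2.4.6, scipy 1.17.1, pandas 2.3.3 and matplotlib 3.10.9. Alternatives covered the cell filters, the total, the pair rule, the smallest pairs and the thinning. The value of 1 gene of another list that the naming rule would give is not reported here.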

Additional observations from a re-analysis of the deposited data

Results flagged for a closer look

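In 3 of 69 groups of 5 pairs, 1 pair stood apart from the other 4 by Dixon's ratio, where chance gives about 1 group in 20. GMNN was at 0.0462 in HTO3+HTO9, while the next lowest both-cytokine pair was at 0.106. TIPIN was at 0.0401 in HTO4+HTO9, with the next lowest both-cytokine pair at 0.107. RPA2 was at 0.433 in HTO4+HTO7, with the next highest no-cytokine pair at 0.375. HTO3+HTO9 and HTO4+HTO9 were among the 4 pairs with fewest cells.

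Barcodes outside the comparisons also held UMIs of the 40 genes. Their summed level was 5.27 per 10000 UMIs in the 1731 removed barcodes and 8.22 in the 394 kept cells without a clear pair, against 8.51 in the 3144 cells with a pair.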

How the results depend on the processing

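The summed level kept its direction for both cytokines against none in every alternative (log2 ratio -0.85 to -0.57), overlapping at 10% mitochondrial UMIs. Where pairs were only left out or split by first hashtag, the direction could not change, because these groups did not overlap to begin with. Of 916 values of the members given by pair, 899 moved by less than the spread and 17 by more. The spread was the pooled standard deviation of a gene's log2 levels within groups, with levels of 0 set to a small value. It is wide for CDCA7, which had no UMIs in some pairs, so large moves of that gene count as less than the spread. None of these members changed sign in a comparison without overlap; 5 values did, all where the groups overlapped: NASP for TNF over none (-0.12 as reported, 0.0058 without HTO2+HTO8 or HTO4+HTO7), TYMS and RPA2 for TNF over none and UHRF1 for both cytokines over TNF under another mitochondrial limit. Leaving out each pair gave log2 ratios of -0.83 to -0.66 for both cytokines over none and -0.48 to -0.30 for TNF over none. For both cytokines over TNF they were -0.42 to -0.24. The highest pair was 2.24 to 2.62 times the lowest. In the same order of comparisons, 14 to 23, 3 to 7 and 2 to 8 members did not overlap. The shares of all genes lower were then 20.5% to 25.7%, 4.72% to 7.12% and 9.98% to 13.8%. For a fixed set of genes, leaving out a pair cannot lower such a count. The share difference of both cytokines minus none was -7.57 to -6.70 percentage points. Among HTO4 pairs alone, TNF over none was 0.046 and both cytokines over TNF -0.89. The ratio of highest to lowest pair was 2.13 at 30% mitochondrial UMIs. At 10% the counts without overlap were 2, 0 and 1 for the 3 comparisons in the order both cytokines against none, TNF against none and both cytokines against TNF, beside 6.24%, 1.21% and 2.81% of all genes lower. Without the 4 smallest pairs they were 27, 6 and 17 (16 lower), beside 36.8%, 9.41% and 24.6%, and at a mean of at least 0.2 they were 6, 0 and 0, beside 21.7%, 4.1% and 11.4%. TNF against none gave 6 without the 5% of cells with most UMIs, beside 4.07%, and both cytokines against TNF gave 1 with means over cells, beside 7.59%. The share difference, -6.79 points as reported, was -15.7 at 5 UMIs, -3.30 at 15 UMIs, -14.4 with 8000 UMIs per cell and -17.9 without thinning; 2 further random draws gave -6.57 and -8.09. The cause of these changes was not tested. The both-cytokine and TNF ranges of the summed level, and the shares of both cytokines and none, overlapped in several alternatives. No paired analysis was possible because the labels give the pairs no replicate numbers. Pairs of 49 to 71 cells limit single genes to few UMIs.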
